A study of Sus scrofa with 24 samples.

Results

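RGS5 and the contractile genes of mural cells were followed across the livers of 24 pigs, with 1 array per pig. The 7 genes were RGS5, PDGFRB, ACTA2, TAGLN, DES, MYH11 and CNN1. Their probes were taken as every non-control probe whose deposited gene name, description or accession names a member, which gave 20 of 43603 probes. These probes stood for 5 of the 7 genes, and TAGLN and MYH11 were not analysed here. RGS5 was chosen by its difference between high and low RFI pigs on these same arrays, and the other genes were named beside it with that result known.

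Residual feed intake (RFI) is the feed an animal eats beyond what its growth and upkeep predict. The restricted high RFI group (RFIplR) were pigs of the high RFI line whose feed was held to what the low RFI line eats. The high RFI group (RFIpl) and the low RFI group (RFIneg) ate ad libitum. Each group held 8 pigs, and all livers were taken at 115 kg body weight.

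Mural cells are the pericytes and smooth muscle cells that wrap blood vessels. In the liver, smooth muscle lies in the walls of the hepatic artery and portal vein, and stellate cells hold the pericyte position along the sinusoids. RGS5 speeds the hydrolysis of GTP by Gi and Gq proteins and so shortens signals from vasoactive receptors, and in mice and humans it is a widely used pericyte marker. PDGFRB is the receptor through which PDGF-B recruits pericytes. ACTA2 is smooth muscle actin, CNN1 is calponin, which binds actin and restrains its myosin-driven movement, and DES is desmin, the intermediate filament of muscle that also marks stellate cells in rodents.

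Levels are log2 values of the processed signal relative to the 75th percentile of each array. The share of spots well above background ran from 63.2% to 72.7% over the arrays. It was 67.4% ± 2.81 in restricted, 70.2% ± 2.28 in high and 67.8% ± 2.77 in low RFI pigs (SD, n = 8 each). Hepatocyte markers were bright in every pig. The 8 that were kept included albumin (ALB), transthyretin (TTR), haptoglobin (HP) and SERPINA1. Their mean level ran from 8.33 to 8.54 in restricted, 8.27 to 8.59 in high and 8.37 to 8.50 in low RFI pigs. All 8 were well above background on all 24 arrays, which the filter on kept probes favours. Testing was limited to probes that at least 6 of the 8 arrays in some group measured well above background. Of the member probes, 16 of 20 were kept, and all 16 were well above background on 24 of 24 arrays. The 4 left out were 1 of 2 PDGFRB probes, well above background in 2 restricted, 3 high and 1 low RFI pigs, and 3 CNN1 probes that carry only a partial match to rat calponin. RNA came from whole liver, so fewer cells of a type and less RNA per cell cannot be told apart. Precision is limited by how many arrays there are.

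The probe sequences are shown for the 2 RGS5 probes, on which the main result rests, as the middle 30 bases of each 60-base probe. The deposited annotation starts them at positions 1967 and 1718 of the same transcript, and the search for shared bases found none between them.
RGS5 A_72_P146676: accaaagtgaggatactgagttaaaaacgt
RGS5 A_72_P569669: ttccttccctatttcgcttgctgcattact

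Several probes of the contractile genes are not separate readings, because they share bases. An ACTA2 pair, shown with the 38 shared bases in capitals, reads nearly the same stretch of the actin transcript.
ACTA2 A_72_P627171: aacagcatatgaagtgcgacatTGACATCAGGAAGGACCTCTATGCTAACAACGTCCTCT
ACTA2 A_72_P678849: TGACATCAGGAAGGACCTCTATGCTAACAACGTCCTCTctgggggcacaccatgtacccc

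A pair of DES probes overlaps likewise, with the 21 shared bases in capitals.
DES A_72_P684426: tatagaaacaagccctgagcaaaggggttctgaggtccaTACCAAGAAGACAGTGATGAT
DES A_72_P601893: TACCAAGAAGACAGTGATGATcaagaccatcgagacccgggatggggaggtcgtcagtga

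RGS5 was lower in both groups of the high RFI line than in the low RFI line. On its brighter probe (A_72_P146676) the level in restricted pigs had a lowest value of -3.43, a median of -2.43 and a highest value of -1.78. In high RFI pigs fed ad libitum the lowest, median and highest levels were -3.06, -2.35 and -1.04. In low RFI pigs they were -2.01, -1.04 and -0.39. The restricted and high RFI groups overlapped over most of their range, whereas the low RFI pigs lay above them with a partial overlap. Of the 16 pigs of the high RFI line, 11 lay below every low RFI pig and all 16 lay below the low RFI median, although high RFI pig 4 equalled that median to 2 decimals. Of the 8 low RFI pigs, 4 lay above every pig of the high RFI line.

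The other RGS5 probe (A_72_P569669) also placed the low RFI group highest, while the medians of the restricted and high RFI groups stood in the opposite order to those of the brighter probe. Its lowest, median and highest levels were -3.32, -2.64 and -2.30 in restricted pigs and -3.24, -2.71 and -1.60 in high RFI pigs. In low RFI pigs they were -2.62, -1.34 and -1.09, over 7 pigs, because the spot of low RFI pig 2 was marked an outlier by the scanner software and left out of the fit, at a level of 0.69. On this probe 9 of 16 pigs of the high RFI line lay below every low RFI pig measured. The deviations of the pigs from their group means correlated at 0.97 between the 2 probes.

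**Figure D1:**
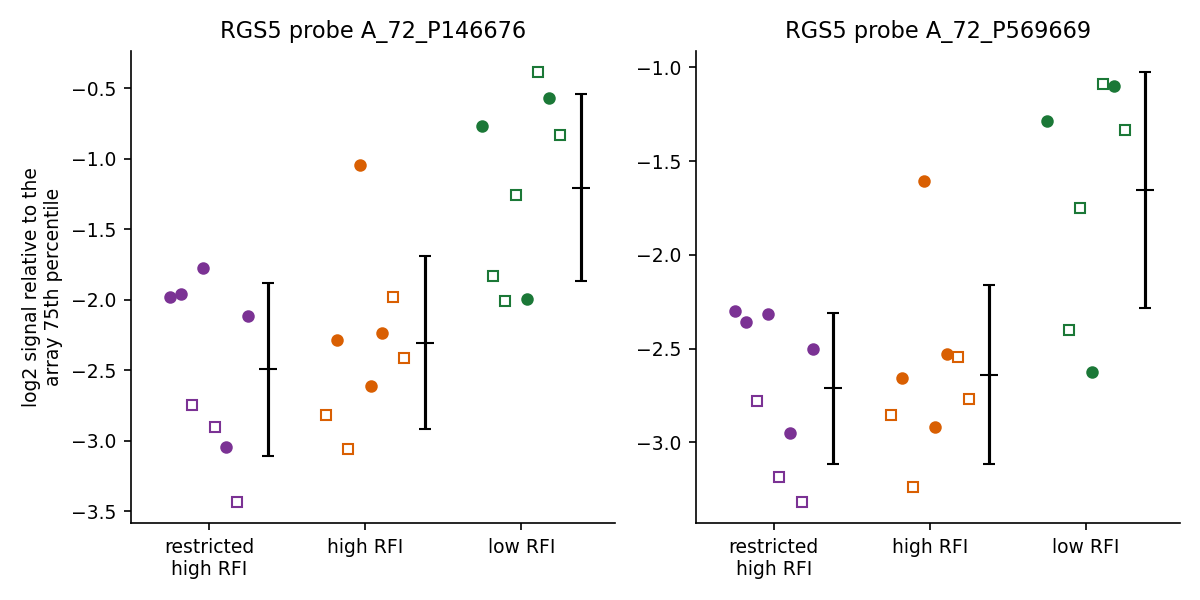
Log2 signal of RGS5 relative to the array 75th percentile, for each pig (points) on the 2 RGS5 probes, by group; bars are mean ± SD, filled circles are scan day 1 and open squares scan day 2. On both probes high RFI pig 4 is the only pig of the high RFI line above the low RFI mean, and the restricted and high RFI groups overlap.

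Between lines at free intake, the contrast that chose the gene, RGS5 averaged -2.31 ± 0.61 in high and -1.21 ± 0.66 in low RFI pigs (SD, n = 8 each). That is a difference of -1.10 ± 0.30 (SE), or 2.14-fold lower in high RFI pigs, and on the other probe it was -0.98 ± 0.25 (SE). These values are a description and carry no test. Taken slide by slide, with 1 or 2 pigs per group on each, the high minus low difference was below 0 on 6 of 6 and ranged from -2.24 to -0.56. It was -0.93 on scan day 1 and -1.30 on scan day 2.

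Between lines at the same feeding level, RGS5 averaged -2.49 ± 0.61 in restricted and -1.21 ± 0.66 in low RFI pigs (SD, n = 8 each). The difference of -1.29 ± 0.30 (SE), or 2.44-fold lower in restricted pigs, did not pass limma's threshold of 0.05 (adjusted p = 0.0633), and on the other probe it was -1.06 ± 0.25 (SE, adjusted p = 0.071). All 8 restricted pigs lay below the low RFI mean on both probes. The low RFI arrays are the same ones on which RGS5 was chosen, so this is not independent of that choice. With slide as a block in limma the difference on the brighter probe was -1.34 (adjusted p = 0.0441) and with scan day as a block -1.41 (adjusted p = 0.0332), both past the threshold. On the other probe scan day as a block gave -1.13 (limma adjusted p = 0.0465) and slide as a block -1.06 (adjusted p = 0.0624). Within scan days it was -1.06 on day 1 and -1.76 on day 2, and slide by slide it was below 0 on 6 of 6, from -1.92 to -0.50.

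Between feeding levels within the high RFI line, RGS5 averaged -2.49 ± 0.61 in restricted and -2.31 ± 0.61 in high RFI pigs (SD, n = 8 each). The difference of -0.19 ± 0.30 (SE) was smaller than the spread between pigs and did not pass limma's test (adjusted p = 0.983). The other probe gave -0.07 ± 0.24 (SE, adjusted p = 0.995), which turned to 0.014 with array weights. The difference was below 0 on 3 of 6 slides, and was -0.13 on scan day 1 and -0.46 on day 2. The high RFI arrays also entered the contrast that chose RGS5.

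PDGFRB, the pericyte receptor, stayed within a narrow range in all groups (probe A_72_P118391). Its lowest, median and highest levels were -3.04, -2.83 and -2.71 in restricted, -3.27, -2.86 and -2.78 in high and -3.17, -2.78 and -2.49 in low RFI pigs. The groups overlapped throughout, and the lowest pigs were 2 of the high and 1 of the low RFI group. The difference was -0.12 ± 0.09 between high and low RFI (adjusted p = 0.704), 0.09 ± 0.09 between restricted and high RFI (adjusted p = 0.967) and -0.03 ± 0.09 between restricted and low RFI pigs (SE, adjusted p = 0.906), all by limma. The restricted minus low difference was 0.16 on scan day 1, -0.16 on day 2 and 0.0065 with scan day as a block. The restricted minus high difference turned to -0.044 under normexp background correction and to -0.028 on scan day 2 alone.

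ACTA2, smooth muscle actin, varied widely among pigs of every group (brightest probe A_72_P556110). The lowest, median and highest levels were 3.58, 4.46 and 5.42 in restricted, 3.97, 4.65 and 5.19 in high and 4.09, 4.65 and 5.42 in low RFI pigs. The groups overlapped almost completely, and the restricted group alone spanned a 3.59-fold range. The difference was -0.08 ± 0.24 between high and low RFI (adjusted p = 0.951), -0.23 ± 0.24 between restricted and high RFI (adjusted p = 0.969) and -0.31 ± 0.24 between restricted and low RFI pigs (SE, adjusted p = 0.633) in limma.

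All 7 ACTA2 probes lay below 0 in each of the 3 comparisons, with no probe past the threshold. They ranged from -0.17 to -0.02 for high minus low RFI, from -0.49 to -0.17 for restricted minus high RFI and from -0.66 to -0.20 for restricted minus low RFI. For high minus low RFI, 4 of the 7 turned to between 0.027 and 0.061 under normexp background correction, and 4 to between 0.024 and 0.055 on scan day 2 alone. These probes share pigs and partly share sequence, so they are not separate tests of the gene.

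CNN1, calponin, had the widest spread of the members (probe A_72_P035636). The lowest, median and highest levels were -1.23, 0.21 and 1.51 in restricted, -0.86, 0.51 and 1.51 in high and -0.22, 0.27 and 2.85 in low RFI pigs. Low RFI pig 6, at 2.85, stood well above the other low RFI pigs, the next of which was at 0.85, and otherwise the groups overlapped. The difference was -0.10 ± 0.45 between high and low RFI (adjusted p = 0.968), -0.28 ± 0.45 between restricted and high RFI (adjusted p = 0.983) and -0.38 ± 0.45 between restricted and low RFI pigs (SE, adjusted p = 0.771) in limma. The second kept CNN1 probe (A_72_P441684) differed by -0.29, -0.36 and -0.65 in these comparisons, with an SE of 0.46.

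DES, desmin, differed little between groups on its brightest probe (A_72_P177466). The lowest, median and highest levels were 3.18, 3.45 and 3.77 in restricted, 3.1, 3.44 and 3.56 in high and 3.40, 3.46 and 4.11 in low RFI pigs. Low RFI pig 6 was again the highest of its group, and the groups overlapped. The difference was -0.16 ± 0.10 between high and low RFI (adjusted p = 0.672), 0.05 ± 0.10 between restricted and high RFI (adjusted p = 0.988) and -0.11 ± 0.10 between restricted and low RFI pigs (SE, adjusted p = 0.719) in limma. Over the 4 DES probes the high minus low difference ranged from -0.34 to -0.16 and the restricted minus high difference from 0.05 to 0.17, with 2 probes turning to -0.064 and -0.0054 on scan day 2 alone and 1 to -0.021 under normexp. For restricted minus low RFI the 4 probes ranged from -0.20 to -0.09, but 3 of them turned to between 0.080 and 0.13 on scan day 1 alone and the brightest to 0.066 under normexp.

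**Figure D2:**
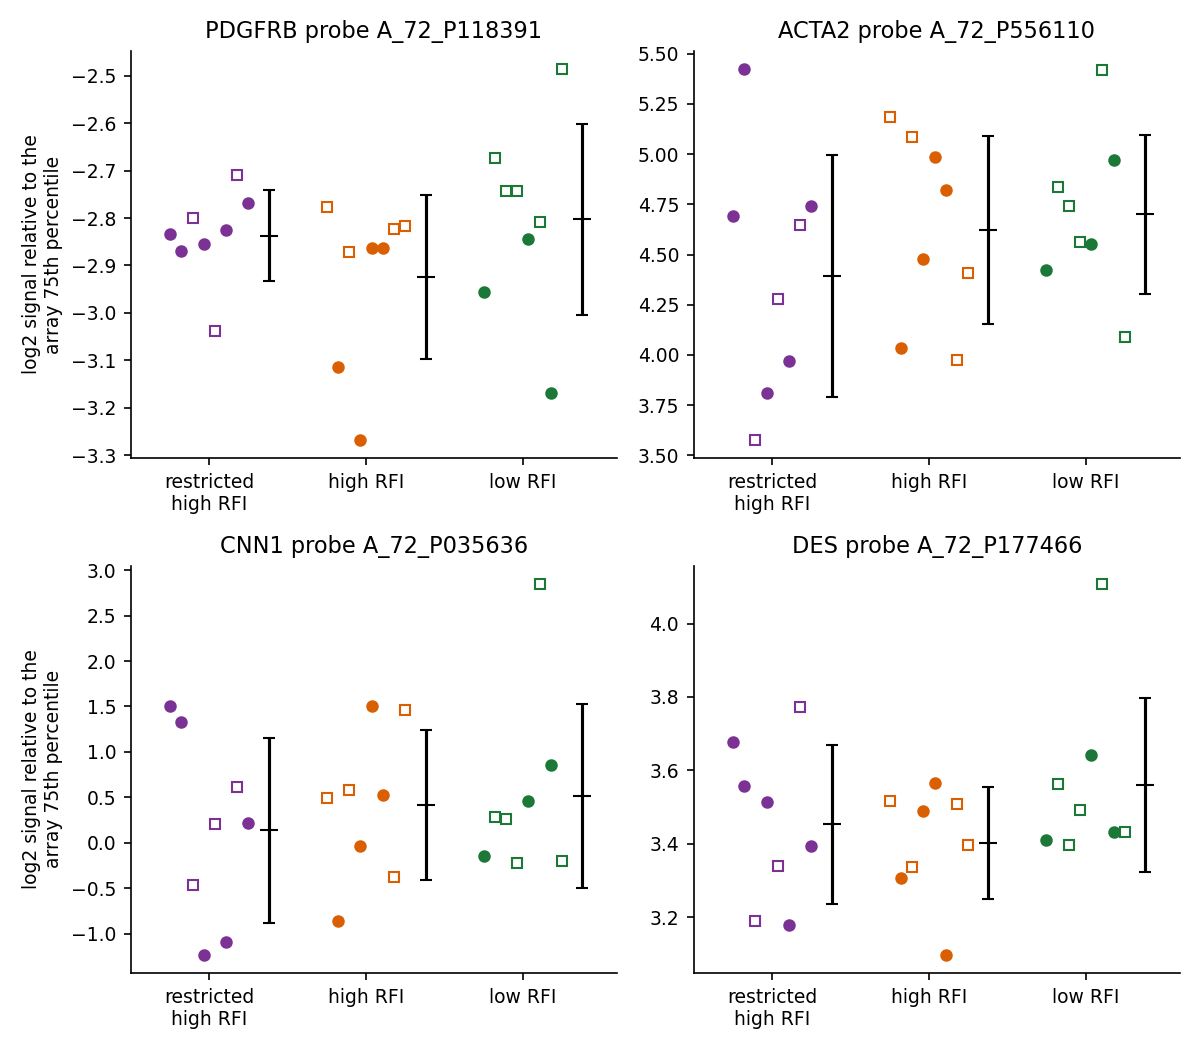
Log2 signal relative to the array 75th percentile for each pig (points) on the brightest probe of PDGFRB, ACTA2, CNN1 and DES, by group; bars are mean ± SD, filled circles are scan day 1 and open squares scan day 2, and each panel has its own axis. The groups overlap in every panel, and low RFI pig 6 is the highest low RFI pig for ACTA2 at 5.42, CNN1 at 2.85 and DES at 4.11.

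Over all members, 0 of 16 kept probes passed limma's adjusted threshold for high minus low RFI, where 0.162% of the 29665 probes tested did. For restricted minus high RFI the count was 0 of 16, against 0% of all probes, and for restricted minus low RFI 0 of 16, against 0.229%. At an unadjusted p under 0.05 the counts were 2, 0 and 2 of 16, each time both RGS5 probes. The same mark was met by 9.64%, 5.37% and 12.8% of all probes in these comparisons. Nothing is read from the high minus low count, since that contrast chose the members. The other comparisons share arrays with it, so their counts are not independent of that choice.

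The 14 kept probes of the other 4 genes had a median high minus low difference of -0.11 and ranged from -0.34 to -0.02, against a median of 0.0036 over all probes tested. For restricted minus low RFI the median was -0.26, with a range from -0.66 to -0.03, against -0.0053 over all probes. For restricted minus high RFI it was -0.20, with a range from -0.49 to 0.17, against -0.011 over all probes. ACTA2 supplies 7 of the 14 probes, so these medians lean on that gene. By gene, the restricted minus high median was -0.27 for ACTA2 and -0.32 for CNN1, but 0.13 for DES and 0.09 for PDGFRB. The comparisons share arrays with each other, and 0 of the 14 had an unadjusted p under 0.05 in any of them.

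**Figure D3:**
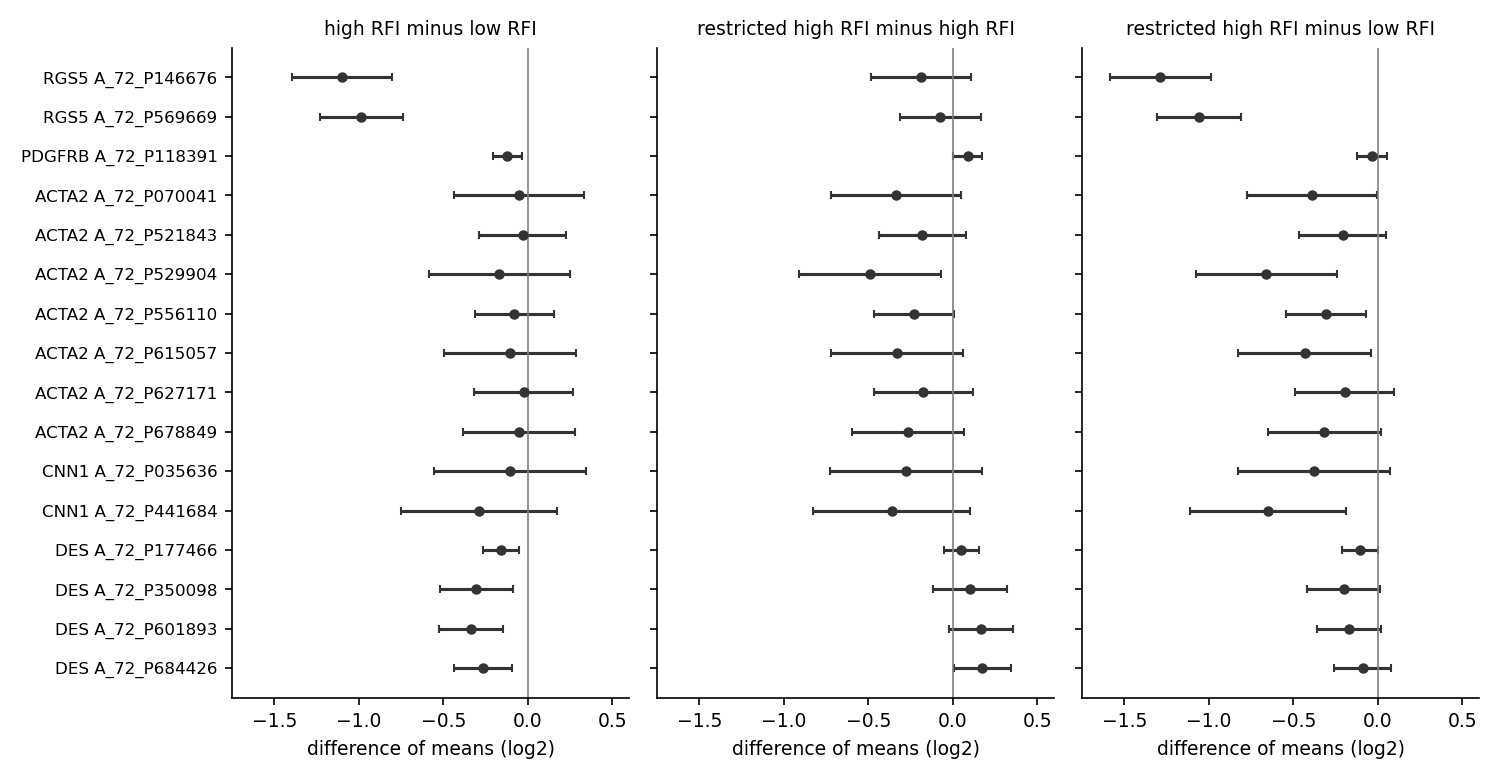
Difference of group means on the log2 scale (points) with its SE (bars) for the 16 kept member probes in the 3 comparisons. Both RGS5 probes lie near -1 in the left and right panels and near 0 in the middle panel, and the other 14 lie between -0.66 and 0.17.

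CNN1, ACTA2 and RGS5 varied more among pigs of a group than most probes did, and PDGFRB less. With group means removed, the SD was 0.96 and 0.98 for the CNN1 probes, 0.50 to 0.89 for the ACTA2 probes and 0.63 and 0.51 for the RGS5 probes, against a median of 0.27 over all probes kept. CNN1 probe A_72_P035636 varied more than 98.3% of all probes kept, and RGS5 probe A_72_P146676 more than 93.2%. DES ranged from 0.21 to 0.45, and PDGFRB, at 0.16, varied more than 13.4% of all probes.

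ACTA2 and CNN1 varied together from pig to pig, DES did so in some groups only, and RGS5 showed little correlation with ACTA2 or CNN1 over all pigs. After group means were removed, ACTA2 and CNN1 correlated at r = 0.77 (Spearman's rho = 0.81) over 24 pigs, with r = 0.77 without the 2 pigs farthest in ACTA2. DES and CNN1 correlated at 0.64, which was 0.44 without low RFI pig 6, and ACTA2 and DES at 0.48, which was 0.36 without that pig. RGS5 correlated at -0.005 with ACTA2, 0.10 with CNN1 and 0.20 with DES. These are descriptions over arrays that share slides, scan days and RNA handling, with no test.

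Within groups the ACTA2 and CNN1 correlation was 0.84 in restricted, 0.60 in high and 0.87 in low RFI pigs (8 pigs each). By scan day it came to 0.90 on day 1 and 0.67 on day 2 (12 pigs each), and it was 0.76 with slide effects removed. ACTA2 and DES correlated at 0.59 in restricted, 0.017 in high and 0.71 in low RFI pigs, and at 0.29 and 0.62 on scan days 1 and 2. DES and CNN1 correlated at 0.64 in restricted, 0.15 in high and 0.90 in low RFI pigs, and at 0.52 and 0.74 on those days. RGS5 and ACTA2 gave 0.26, -0.55 and 0.23 within restricted, high and low RFI pigs, and 0.13 and -0.33 on the 2 scan days. With slide effects removed, RGS5 correlated at 0.14 with ACTA2, 0.35 with CNN1 and 0.51 with DES. RGS5 and PDGFRB, both pericyte genes, correlated at -0.41, which was -0.72 on scan day 1, -0.066 on scan day 2, -0.071 with slide effects removed and 0.18 under normexp background correction.

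**Figure D4:**
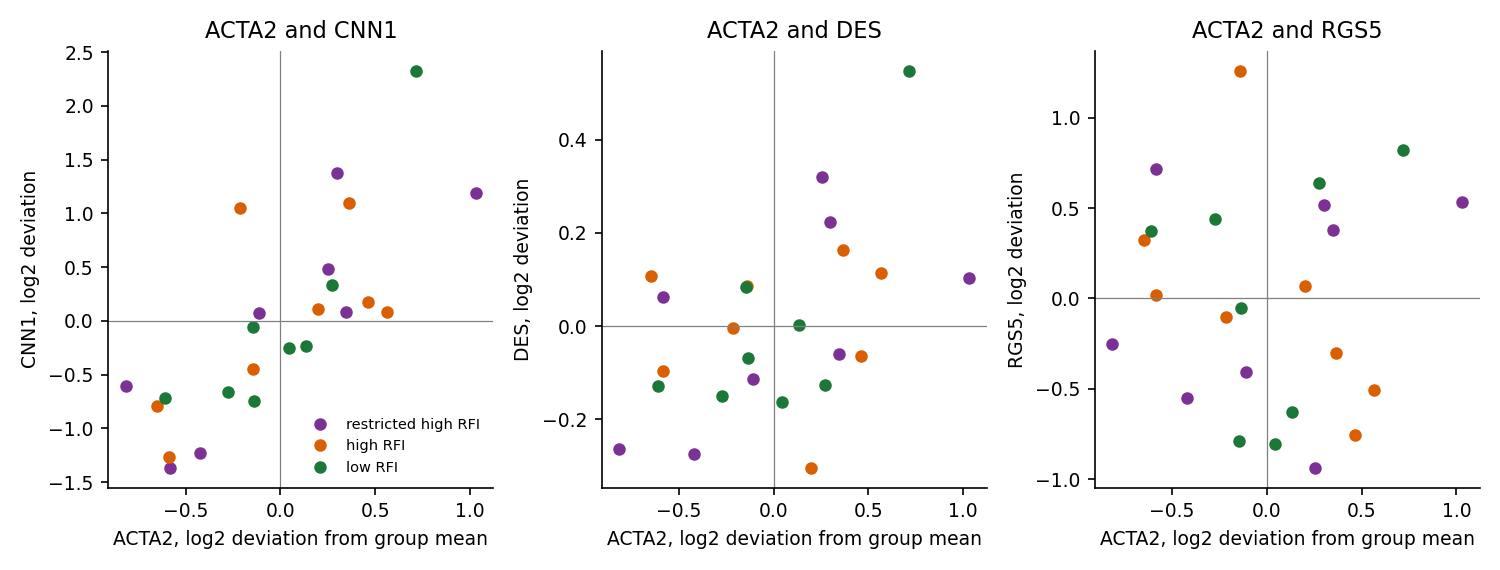
Deviations of 24 pigs from their group means (log2) for ACTA2 against CNN1, DES and RGS5, on the brightest probe of each gene; each point is a pig, coloured by group. CNN1 rises with ACTA2 (r = 0.77), DES less closely (r = 0.48), and RGS5 shows no slope (r = -0.005).

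Probes of ACTA2 and of CNN1 correlated closely within each gene, and those of DES less so. Over the 21 pairs of ACTA2 probes the correlation of deviations ranged from 0.78 to 0.997, with a median of 0.94. The CNN1 pair correlated at 0.91, and the 6 pairs of DES probes ranged from 0.37 to 0.93. The brightest DES probe correlated with the other DES probes at 0.37, 0.58 and 0.59. Between genes, the 14 pairs of an ACTA2 and a CNN1 probe ranged from 0.64 to 0.86, and the 14 pairs of an ACTA2 and an RGS5 probe from -0.018 to 0.13.

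**Figure D5:**
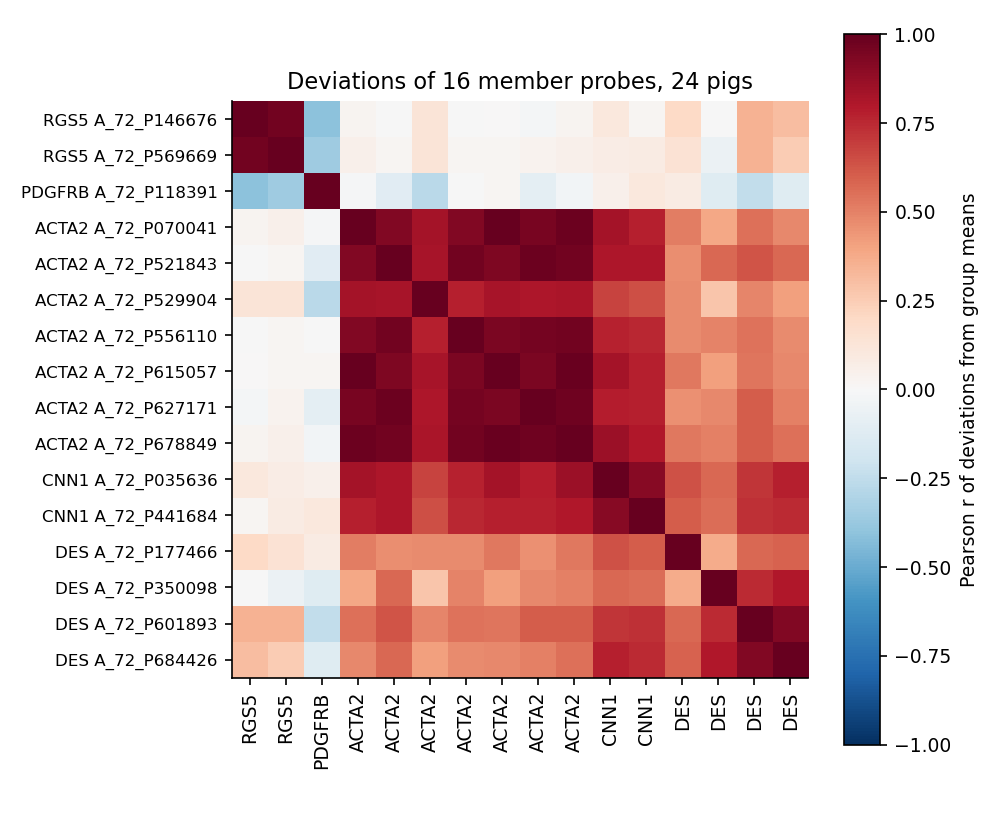
Pearson correlation of deviations from group means over 24 pigs for each pair of the 16 kept member probes (colour scale from -1 to 1). The 2 RGS5 probes correlate at 0.97 with each other and at no more than 0.13 with any ACTA2 probe, whose correlations with the CNN1 probes are 0.64 to 0.86.

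The mean level of smooth muscle genes outside the members correlated with ACTA2. Of the 28 on the list, 18 had a kept probe, and their mean level correlated at 0.72 with ACTA2 and -0.10 with RGS5 (deviations, 24 pigs). The kinase that switches on smooth muscle myosin, MYLK, correlated at 0.82 with ACTA2, and the myosin light chain MYL9 at 0.56. The 8 genes closest to ACTA2 of 4506, named after their values were seen, were ACTA1 (0.92), TPM2 (0.88), MYLK (0.82), FLNA (0.80), FOLH1B (0.79), CNN1 (0.77), VCL (0.76) and FHL1 (0.76). Of these, FOLH1B differed by -0.72 ± 0.20 between high and low RFI pigs and by -0.71 ± 0.20 between restricted and low RFI pigs (SE).

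None of these 18 genes passed limma's threshold in any comparison. At an unadjusted p under 0.05 there were 1, 0 and 2 genes for high minus low, restricted minus high and restricted minus low RFI. That mark was met by 9.64%, 5.37% and 12.8% of all probes. The median difference was -0.04 for high minus low RFI, with 10 of 18 genes below 0, and -0.11 for restricted minus low RFI, with 12 of 18 below 0, and over the 15 alternatives these medians reached 0.021 and 0.011. Among the 4 brightest, MYL6 and MYL9, light chains of myosin, differed by 0.01 ± 0.09 and 0.07 ± 0.16 between high and low RFI pigs, MYLK by -0.06 ± 0.14 and the chaperone CRYAB by 0.03 ± 0.20 (SE).

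Further mural and pericyte genes were kept for 13 of 25 listed, with 0 past limma's threshold. At an unadjusted p under 0.05 there were 1, 1 and 3 in the 3 comparisons, against 9.64%, 5.37% and 12.8% of all probes. The median difference of the 13 genes was -0.06 for high minus low RFI, -0.02 for restricted minus high RFI and -0.11 for restricted minus low RFI. The angiotensin receptor AGTR1 differed by 0.60 ± 0.15 between restricted and low RFI pigs (SE), and did not pass the threshold (limma adjusted p = 0.0817). It differed by 0.55 ± 0.15 between restricted and high RFI pigs (SE, adjusted p = 0.715) and by 0.05 ± 0.15 between high and low RFI pigs (SE, adjusted p = 0.945). Of the other 3 brightest, the endothelin receptor EDNRB differed by -0.21 ± 0.12, the aminopeptidase ANPEP by -0.09 ± 0.15 and vitronectin, VTN, by -0.11 ± 0.09 between high and low RFI pigs (SE). ANPEP and VTN are also made by other liver cells, hepatocytes among them. RNA came from whole liver, and which cells gave the AGTR1 difference was not tested.

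Of the RGS family and its G protein partners, 9 of 18 were kept and 0 passed limma's threshold. There were 1, 1 and 0 at an unadjusted p under 0.05, against 9.64%, 5.37% and 12.8% of all probes. RGS4, a close relative of RGS5, had a difference of 0.68 ± 0.26 for high minus low RFI (SE, limma adjusted p = 0.377) and 0.03 ± 0.26 for restricted minus low RFI (SE, limma adjusted p = 0.970). RGS2 differed by -0.18 ± 0.23 and RGS12 by -0.06 ± 0.12 between high and low RFI pigs, and the 2 RGS16 probes by 0.04 ± 0.20 and -0.31 ± 0.57 (SE). Between restricted and low RFI pigs the dimmer RGS16 probe (A_72_P165546), well above background on 18 of 24 arrays, differed by -1.23 ± 0.57 (SE, limma adjusted p = 0.365), and the brighter one, on which the list counts rest, by -0.16 ± 0.20 (SE, adjusted p = 0.782). The G protein subunits GNAI2 and GNAI3, on whose class RGS proteins act, differed by 0.01 ± 0.11 and -0.04 ± 0.06 (SE). RGS8 was not analysed here.

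Probes of the actin family can bind transcripts of more than 1 actin gene, so a correlation between actin probes cannot be told apart from shared binding. Over the 11 kept ACTA1 probes the correlation with ACTA2 ran from -0.15 to 0.98. The skeletal muscle genes CKM (creatine kinase) and TNNC2 (troponin C) correlated with ACTA2 at -0.36 and -0.46. The heart actin ACTC1, of the same list, correlated with ACTA2 at 0.72 and 0.14 on its 2 kept probes. Over the 10 kept skeletal and heart muscle genes, the mean level correlated with ACTA2 at -0.14. Of the calponin relatives, CNN2 correlated at 0.54 with CNN1 and CNN3 at -0.01. ACTG2, the actin of visceral smooth muscle, was not analysed here.

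Most stellate cell and fibroblast genes had differences below 0 between lines, and none passed limma's threshold in any comparison. Of 24 kept of 31 listed, 20 were below 0 for high minus low RFI (median -0.10, against 0.0036 over all probes). For restricted minus low RFI 23 were below 0 (median -0.21, against -0.0053 over all probes). The genes were read on the same pigs, so their signs are not separate readings. At an unadjusted p under 0.05 there were 3 and 5 of 24, against 9.64% and 12.8% of all probes. For restricted minus high RFI, 20 of 24 were below 0 (median -0.09) and 2 met that mark, against 5.37% of all probes. In that comparison 13 of 24 were below 0 without slide 3 (median -0.04) and 14 of 24 on scan day 1 alone (median -0.037). The mean level of these genes ranged from 0.06 to 0.66 in restricted, 0.23 to 0.71 in high and 0.27 to 0.82 in low RFI pigs, and 23 of the 24 were well above background on all arrays. It correlated at 0.016 with RGS5 and 0.49 with ACTA2 over deviations of 24 pigs. Over 15 alternatives the median ran from -0.14 to -0.069 for high minus low RFI and from -0.24 to -0.13 for restricted minus low RFI. The part of the stellate cell and fibroblast genes in the RGS5 difference was not tested.

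Among the brightest of these genes, matrix Gla protein (MGP) differed by -0.26 ± 0.20, periostin (POSTN) by -0.15 ± 0.14 and vimentin (VIM) by 0.06 ± 0.15 between high and low RFI pigs (SE). The deviations of MGP correlated at 0.47 with those of RGS5.

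Endothelial genes had 17 kept of 28 listed, with 0 past limma's threshold. At an unadjusted p under 0.05 there were 1, 1 and 2 in the 3 comparisons, against 9.64%, 5.37% and 12.8% of all probes. For high minus low RFI 14 of 17 genes were below 0 (median -0.16, against 0.0036 over all probes). For restricted minus low RFI 15 of 17 genes were below 0 (median -0.13, against -0.0053). Their mean level ranged from -0.002 to 0.73 in restricted, -0.10 to 0.49 in high and -0.09 to 0.81 in low RFI pigs, and correlated at 0.25 with RGS5. The direction did not hold on both scan days: for high minus low RFI 7 of 17 were below 0 on day 1 and 15 of 17 on day 2, and for restricted minus low RFI 7 of 17 and 17 of 17. Each scan day held only 3 to 5 pigs of a group. Endoglin (ENG), a co-receptor of TGF-beta, differed by -0.41 ± 0.13 between restricted and low RFI pigs (SE, limma adjusted p = 0.162). The adhesion molecule PECAM1 differed by -0.03 ± 0.14, the scavenger receptor STAB1 by -0.11 ± 0.13 and nitric oxide synthase NOS3 by -0.10 ± 0.23 between high and low RFI pigs (SE). The part of these genes in the RGS5 difference was not tested.

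Markers of other liver cells gave the following medians, whose signs changed under some of the alternatives. The 8 hepatocyte genes kept of 12 had a median high minus low difference of -0.01 and the 7 Kupffer cell genes kept of 14 had one of 0.16. The 7 bile duct genes kept of 10 had one of -0.20, with 4 of 7 below 0, and for the 2 mesothelial and nerve genes kept of 9 it was -0.02. Skeletal and heart muscle genes, 10 kept of 24, had a median of -0.05, and 9 more were on the array without being kept. None of these genes passed limma's threshold in any comparison. At an unadjusted p under 0.05 there was 1 bile duct gene for restricted minus high RFI and 1 Kupffer cell gene for restricted minus low RFI. Of all probes, 5.37% and 12.8% met that mark.

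Among the brightest of these genes, the hepatocyte genes ALB, TTR, SERPINA1 and HP differed between high and low RFI pigs by -0.03 to -0.01, with SEs of 0.06 to 0.07. Of the Kupffer cell genes, the haemoglobin scavenger receptor CD163 differed by 0.22 ± 0.16, the complement chain C1QA by 0.26 ± 0.15, the lipopolysaccharide co-receptor CD14 by -0.12 ± 0.07 and CD5L by -0.06 ± 0.12 (SE). Of the bile duct genes, osteopontin (SPP1) differed by 0.30 ± 0.27, the claudin CLDN4 by -0.28 ± 0.31 and the mucin MUC1 by 0.10 ± 0.10 (SE). CKM differed by -0.21 ± 0.21, TNNC2 by -0.07 ± 0.24, ACTA1 by 0.01 ± 0.21 and ACTC1 by -0.03 ± 0.16, and the nerve sheath gene SOX10 by -0.01 ± 0.16 (SE). These are the brightest probes, and over the 11 kept ACTA1 probes the difference ran from -0.55 to 0.06.

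The 8 genes with deviations most like those of RGS5 over 24 pigs included none of the listed mural genes, of which 13 of 25 were kept. With only 13 such genes among 4506, their absence from 8 is the usual outcome, and nothing is read from it. Of 4506 genes with a kept probe, the 8 closest were LRRK2 (r = 0.68), ATIC (0.65), PHTF1 (0.64), C1H15orf48 (0.62), MS4A2 (0.61), DTWD1 (0.56), CD1.1 (0.56) and ATF7IP (0.55). LRRK2 is a kinase, ATIC an enzyme of purine synthesis and MS4A2 a chain of the IgE receptor of mast cells. Against the second RGS5 probe the same 8 genes correlated at between 0.50 and 0.67. The 2 RGS5 probes themselves correlate at 0.97, so this is not a separate check. The 8 are the highest of 4506 correlations over 24 pigs, and how high chance alone would reach was not tested. The 3 lowest were IL2RA, the alpha chain of the interleukin 2 receptor (-0.70), and the unnamed loci LOC100153925 and LOC100152920 (both -0.69). Between high and low RFI pigs LRRK2 differed by -0.13 ± 0.09 and MS4A2 by -0.13 ± 0.16 (SE). Between restricted and low RFI pigs LRRK2 differed by -0.22 ± 0.09 and MS4A2 by -0.47 ± 0.16 (SE). RGS5 was chosen for its high minus low difference, so its size is not compared with theirs.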

How the data were processed

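Liver RNA of 24 pigs was hybridised to 1-colour arrays (Cy3, 150 ng RNA per the labels' protocols) with 45220 features, scanned with Feature Extraction 10.7.3.1 per the file headers. Used from the deposited files were the processed signal, an intensity, and for normexp (offset 50) the mean and background intensity. R 2.10.0 is in the submitters' processing notes. The authors' table of log2 values (27564 features) equalled log2 processed signal minus each array's median over those features. Deposited flags mark each spot as above background, saturated or an outlier (0 or 1).

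From these, log2 signal minus the 75th percentile was averaged over spots of a probe, without control and outlier spots. Groups were compared with limma 3.58.1 in R 4.3.3 (all 24 arrays, Benjamini-Hochberg over 29665 probes, threshold 0.05). The fit was checked on simulated data. RefSeq tables (Sscrofa11.1) served for names only. The main fit did not pair pigs by number. Same-numbered pigs' deviations correlated at a mean of 0.055, from -0.19 to 0.42 (24 pairs). Other pairs across groups had a mean of -0.007, from -0.30 to 0.25 (168 pairs). These values do not settle whether the numbers pair the pigs. Nothing says which pigs share a litter. Slide (6) and scan day (2) were tried as blocks.

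The members and lists were chosen with earlier results of these data known. Named were every member, the 4 brightest genes of each list, the 8 genes most and 3 least like RGS5, and close paralogs. Some of these genes and probe sequences are not reported here.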

Additional observations from a re-analysis of the deposited data

Results flagged for a closer look

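Of 48 groups of 7 or 8 pigs, 4 groups, each with 8, held a pig whose gap to the nearest other pig took more than 0.526 of the group's range. Chance gives about 1 group in 20 where groups are separate. These groups are correlated probes read on the same pigs, so the count cannot be set against that rate. Low RFI pig 6 was the highest of its group for CNN1 probe A_72_P035636, at 2.85, with the other low RFI pigs between -0.22 and 0.85. The same pig was highest for DES probe A_72_P177466, at 4.11 against 3.40 to 3.64 in the others, and for DES probe A_72_P684426, at -0.93 against -1.95 to -1.73. High RFI pig 4 was the highest of its group for RGS5 probe A_72_P569669, at -1.60, with the other high RFI pigs between -3.24 and -2.53.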

How the results depend on the processing

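RGS5 was lower in high than in low RFI pigs under all 15 alternatives (-1.30 to -0.78, nearest 0 with normexp) and without each of the 24 pigs in turn (-1.28 to -0.98). This contrast chose RGS5, so the ranges are a description only. Some alternatives cannot change the difference on the brighter probe. They are the filters on dim probes, the fit of only the groups compared, the pig number block and keeping outlier spots. For restricted minus low RFI the RGS5 difference ranged from -1.76 to -0.94, and past the threshold were slide as a block (-1.34, limma adjusted p = 0.0441) and scan day as a block (-1.41, adjusted p = 0.0332). Leaving out each pig gave -1.40 to -1.15 (adjusted p from 0.0415 to 0.119), past the threshold without low RFI pig 5, high RFI pig 4 or restricted pig 1. RGS5 was chosen on these same low RFI arrays, so none of these p-values is independent of that choice. For restricted minus high RFI the alternatives gave -0.46 to -0.065, and leaving out each pig -0.30 to -0.0078. The causes of these shifts were not tested.

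Member probes past the threshold for restricted minus low RFI numbered 1 with slide as a block, 2 with scan day and 1 with the pig number as a replicate block, all RGS5 probes, and 0 under the other 12 alternatives. With the replicate block the second RGS5 probe gave -1.08 (limma adjusted p = 0.0388), and 1 list gene passed, the collagen COL1A2 (-0.86, adjusted p = 0.043), named after its value was seen. That block changed no other count.

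Of 240 values per comparison (16 probes, 15 alternatives), 8, 6 and 6 turned sign for high minus low, restricted minus high and restricted minus low RFI, none past the threshold. Some alternatives, such as the filters on dim probes, cannot change a difference, so the 240 values are not separate checks. For high minus low RFI, ACTA2 probes turned to 0.043, 0.027, 0.061 and 0.031 under normexp and to 0.055, 0.036, 0.024 and 0.046 on scan day 2. For restricted minus high RFI, normexp gave -0.021 for a DES probe and -0.044 for PDGFRB, scan day 2 gave -0.0054 and -0.064 for DES and -0.028 for PDGFRB, and array weights gave 0.014 for the second RGS5 probe. For restricted minus low RFI, normexp gave 0.066 for a DES probe, scan day 1 gave 0.080, 0.082 and 0.13 for DES and 0.16 for PDGFRB, and scan day as a block gave 0.0065 for PDGFRB. Normexp moved the median of all probes to -0.11 for restricted minus low RFI, so its values are read against that.

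The median correlation of the 10 gene pairs was 0.092. It ranged from 0.044 with normexp to 0.245 with slide effects removed, and was 0.042 without low RFI pig 6. Keeping outlier spots, and correlations without low RFI pig 6, were added after the data were seen.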
